A study of Macaca mulatta with 9 samples.

Results

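The genes described here belong to the families that activate, oxidise, elongate, store, hydrolyse and carry fatty acids. They were chosen by name: a probe set was a member if the array annotation gave it 1 gene symbol that begins with ACAD, ACSL, ACSM, ACOT, ACOX, HADH, CPT1, CPT2, ELOVL, FABP, PLIN, DGAT, AGPAT or LPIN, or that is MTTP, AADAC, LPL, LIPA, LIPE, LIPC or SCD. The rule found 84 probe sets of 49 genes, out of 52865 probe sets on the array, of which 24969 carried 1 symbol and stood for 14133 genes. CPT2, ACSL4, PLIN1, PLIN2, LPIN1, LIPE and SCD were not analysed here.

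Small antral follicles (SAFs) of rhesus macaques, at the stage where a fluid-filled cavity has opened, were measured on 1-colour Affymetrix arrays, 3 arrays for each of 3 groups. The females were young adults in the early follicular phase: one group received a Western-style diet with chronic T, given in the labels as chronically raised androgen (WSD+T), another the Western-style diet alone (WSD), and the control group a standard diet. Each sample pooled the SAFs of 1 female and ovary, 3.7 ± 0.3 per ovary (kind of error not stated) from 3 ovaries in a group, all picked at or near menses as follicles that looked healthy. They were cleaned of surrounding stroma and opened, and granulosa cells, follicle wall and oocyte were lysed together. Because these are pooled whole follicles, fewer cells of a type and less RNA per cell cannot be told apart.

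Fatty acids enter cells through membrane carriers or after lipoprotein lipase has split circulating triglyceride, and binding proteins carry them through the cytosol. Acyl-CoA synthetases activate them, after which they are either passed through carnitine palmitoyltransferase 1 into mitochondria for stepwise beta-oxidation, or esterified by acyltransferases and kept in droplets coated by perilipins. Granulosa cells and the oocyte both hold lipid droplets, and beta-oxidation is known to serve oocyte maturation.

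Only probe sets whose mean log2 value reached the median of all probe sets other than controls, a signal of about 21.3, were tested, which kept 26354 probe sets of 9995 genes. Among the members, 37 of 49 genes and 58 of 84 probe sets passed. Each gene is given by the brightest, on average, of its tested probe sets. Signals are the deposited linear MAS5 values, group values are mean ± SD of 3 arrays, and fold changes are differences of log2(signal + 16), which understate the change of dim genes. Adjusted p values are limma's, by Benjamini-Hochberg over all tested probe sets, and a gene is said to be higher or lower past the threshold at an adjusted p under 0.05. The 12 genes with no tested probe set were ACOT4, ACOT11, ACOT12, ACSL6, ACSM1, ACSM5, ELOVL3, FABP1, FABP2, FABP6, LIPC and PLIN5, whose highest signal on any array was 40.5.

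Some libraries stood apart. The array of WSD replicate 3 had a median signal of 16, against 19.7 to 23.8 on the others, and the WSD+T arrays correlated at 0.985 to 0.993 with each other, against 0.861 to 0.949 within WSD and 0.949 to 0.961 within control. The labels call the replicates biological. Whether the WSD+T arrays hold fully separate RNA was not tested. If they do not, the SDs of WSD+T are too small. The fit pools 1 spread over the 3 groups, so the SEs and p values of all 3 comparisons would then be too small as well. With only WSD and control in the fit, which also has fewer arrays, the 3817 probe sets past the threshold in WSD vs control became 854. The 5 members past it became 2. With WSD+T replicates 1 and 3 averaged into 1 sample, the 517 probe sets past the threshold in WSD+T vs control became 0. That fit also has 1 sample fewer, and leaving out WSD+T replicate 1 or replicate 3 gave 0 too. It therefore cannot decide whether RNA was shared. Markers of cell types also moved between arrays. Summed signals of 13 macrophage and myeloid markers were 17970, 16030 and 17120 in WSD+T, 16830, 24200 and 974 in WSD and 10220, 1995 and 2413 in control; the same 3 arrays, WSD replicate 3 and control replicates 2 and 3, were lowest for all 12 of the tested ones, and none of the 12 passed limma's threshold in any comparison (3 had an unadjusted p under 0.05 in WSD+T vs control, and 0 in the other comparisons). For 9 granulosa markers the sums were 9543, 10830 and 9592 in WSD+T, 12330, 7660 and 12260 in WSD and 12390, 14680 and 16210 in control, with 1 higher and 2 lower in WSD than in control and 2 lower in WSD+T than in control. The 9 oocyte markers summed to 1307, 1372 and 1538 in WSD+T, 1316, 1630 and 1162 in WSD and 1143, 886 and 546 in control. Of the tested oocyte markers 1 was higher than control in WSD+T and 1 in WSD, and of 8 theca and stroma markers 2 were lower in WSD than in control and 1 was higher in WSD+T than in WSD. The 4 smooth muscle and pericyte markers summed to 4396, 4748 and 4351 in WSD+T, 3321, 3721 and 4076 in WSD and 3255, 3138 and 2490 in control, without overlap between WSD+T or WSD and control, and 1 was higher in WSD than in control. The part these shifts have in the fatty acid results was not tested, and results that rest on WSD replicate 3 are given with and without it.

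In WSD follicles, 5 of the 37 tested member genes (13.5%) differed from control past the threshold, where 15.5% of all tested genes did. AADAC and ACOT9 were higher, and MTTP, ACAD8 and ACAD9 were lower, a split that became 3 higher and 2 lower after median centring or loess; over all tested genes 4.73% were higher and 10.7% lower. In WSD+T follicles 1 member, MTTP, was lower than in control, where 2.34% of all genes passed in either direction and 1.73% were lower. MTTP was kept by the filter through its control arrays alone, so higher signals in control were a condition of its being tested. No member passed between WSD+T and WSD in limma's test, where 2.83% of all genes did; 8 members had an unadjusted p under 0.05 there. The shares of members past the threshold were thus near those of the whole array. The median log2 fold change of the members was 0.00 for WSD+T vs control, -0.08 for WSD vs control and 0.02 for WSD+T vs WSD, against -0.01, -0.08 and 0.09 over all tested genes.

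**Figure D1:**
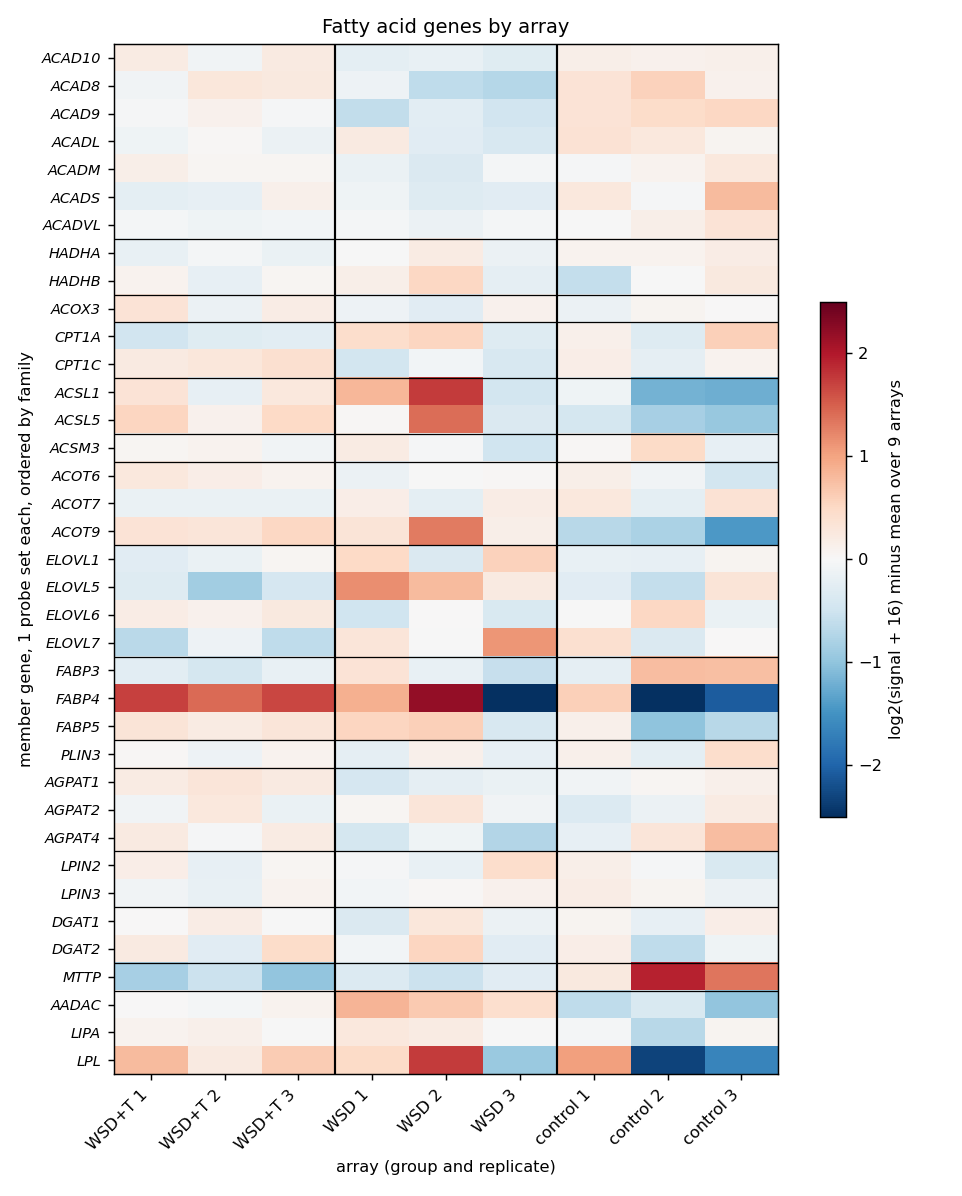
Heat map of the 37 tested member genes (rows, 1 probe set each, ordered by family) on the 9 arrays (columns, by group and replicate), coloured by log2(signal + 16) minus the gene's mean over the arrays, with colours clipped at 2.5 in either direction. FABP4, LPL and the acyl-CoA synthetase ACSL1 are lowest on WSD replicate 3 and control replicates 2 and 3. ACSL5 is lowest and MTTP highest on the 3 control arrays.

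The acyl-CoA dehydrogenases, which take the first oxidising step on an activated acyl chain, all had lower mean signals in WSD than in control. Their median log2 fold change was -0.38, negative in 7 of 7 genes, where it was negative for 5709 of 9995 genes on the array; 2 of the 7 passed the threshold. ACAD9, which is both an acyl-CoA dehydrogenase and an assembly factor of respiratory complex I, had signals of 354, 389.8 and 354 in WSD+T, 231, 301 and 254 in WSD and 461, 504 and 529 in control. Every WSD array lay below every WSD+T array, and every WSD+T array below every control array. The means were 366 ± 20.5 in WSD+T, 262 ± 35.9 in WSD and 498 ± 34.5 in control. ACAD9 was lower in WSD than in control (log2 fold change -0.89, SE 0.14, adjusted p = 0.00738), and this held in all 20 alternative fits. WSD+T did not pass relative to control (log2 fold change -0.43, SE 0.14, adjusted p = 0.157) or to WSD (log2 fold change 0.47, adjusted p = 0.106). The first of these passed with array weights (adjusted p = 0.0439).

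ACAD8 is isobutyryl-CoA dehydrogenase, an enzyme of valine breakdown rather than of fatty acid oxidation. Its signals were 102, 137 and 133 in WSD+T, 99.8, 65.2 and 60.6 in WSD and 143, 171 and 119 in control. The WSD arrays lay below all of the control arrays and all of the WSD+T arrays, while WSD+T overlapped control. The difference between WSD and control passed (log2 fold change -0.83, SE 0.21, adjusted p = 0.0327), but in only 8 of 19 alternative fits, whose adjusted p ran from 0.0249 to 0.103. The call was lost without WSD+T replicate 2 or 3, WSD replicate 2, or control replicate 1 or 2. Its other tested probe set also read lower in WSD without passing (log2 fold change -0.50, adjusted p = 0.0957).

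ACADM, ACADVL, ACADL, ACADS and ACAD10 did not pass the threshold. ACADM, for medium chains, had a log2 fold change of -0.29 in WSD relative to control (95% interval -0.61 to 0.03, adjusted p = 0.191), and ACADVL, for very long chains, -0.24 (95% interval -0.55 to 0.06, adjusted p = 0.243). In both genes all WSD arrays were below all control arrays. Over the family, WSD and control did not overlap, with WSD lower, in 6 of 7 genes, where 22.0% of all tested genes had WSD below control without overlap. ACADS, ACAD10 and ACADL had log2 fold changes of -0.58, -0.36 and -0.38 in the same comparison.

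Between WSD+T and control the family's fold changes were also negative in 7 of 7 genes, with a median of -0.24 and none past the threshold. Over all tested genes 5068 of 9995 were negative there. Between WSD+T and WSD the family's fold changes were positive in 7 of 7, with a median of 0.27. In that comparison 6018 of all 9995 tested genes were positive, with a median of 0.09. WSD+T lay above WSD without overlap in 4 genes of the family, where 18.2% of all tested genes did so. The family's direction in WSD+T vs WSD depends on how the arrays are scaled, since it was positive in 5 of 7 genes after quantile normalization and in 4 of 7 after median centring or loess. The negative direction in WSD relative to control held in 7 of 7 under those scalings, with medians of -0.34, -0.25 and -0.29. All 3 comparisons share arrays, so their directions are not independent of one another. A further ACADL probe set behaved differently, with 126, 67.0 and 98.4 in WSD+T, 69.9, 194 and 3.97 in WSD and 14.0, 11.7 and 8.13 in control, and did not pass in any comparison. Without WSD replicate 3, which had its lowest signal, this probe set was higher than control in WSD+T (log2 fold change 2.02, adjusted p = 0.0196) and in WSD (log2 fold change 2.31, adjusted p = 0.00705), against the direction of the family's other values. All of its control arrays were under the filter's signal of 21.3, so higher signals in the diet groups were a condition of its being tested.

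**Figure D2:**
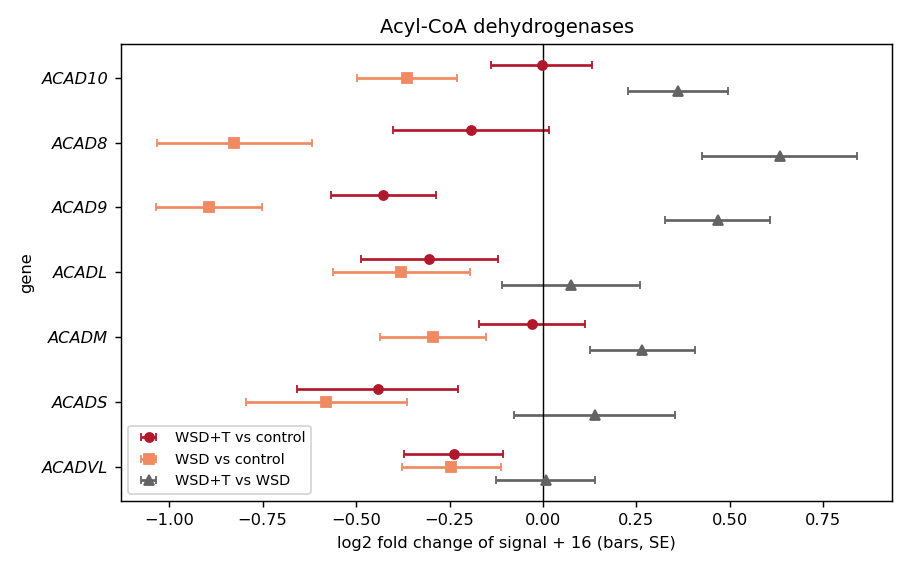
Log2 fold changes (horizontal axis) of the 7 acyl-CoA dehydrogenases (vertical axis) in each of the 3 comparisons, with bars of 1 SE. All points of WSD vs control lie left of 0, with ACAD9 farthest at -0.89, and those of WSD+T vs WSD lie right of 0, as 4 or 5 of the 7 do under other scalings.

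The carnitine gate and the trifunctional protein of beta-oxidation did not pass limma's threshold in any comparison. Among the brightest probe sets of these genes only CPT1C had an unadjusted p under 0.05, in WSD+T vs WSD (log2 fold change 0.62, adjusted p = 0.0783). Without WSD replicate 2 CPT1C passed in that comparison (log2 fold change 0.74, adjusted p = 0.0396). CPT1A, the liver-type enzyme that controls entry of long chains into mitochondria, had 739, 847 and 866 in WSD+T, 1416, 1523 and 827 in WSD and 1141, 824 and 1583 in control. The arrays of the groups overlapped, and the log2 fold change was 0.09 in WSD relative to control, with a 95% interval of -0.57 to 0.74. That interval leaves room for changes of over 1.5-fold in the upward direction. In WSD+T relative to control it was -0.48 (95% interval -1.13 to 0.17). HADHA, the subunit with hydratase and dehydrogenase activities, was narrower, at -0.26 in WSD+T (95% interval -0.57 to 0.05) and -0.11 in WSD (95% interval -0.42 to 0.20), each relative to control. Its second probe set read 156, 185 and 157 in WSD+T, 51.0, 109.7 and 63.4 in WSD and 177, 114 and 130.2 in control, with WSD lowest, and missed the threshold both for WSD vs control (adjusted p = 0.0603) and for WSD+T vs WSD (adjusted p = 0.0587). Without WSD replicate 2 it passed in both (adjusted p = 0.0164 and 0.0224). HADHB, the thiolase subunit, is read by a probe set whose name marks it as matching more than 1 transcript, so its value is uncertain; its log2 fold change in WSD was 0.27 (adjusted p = 0.507).

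Among genes outside the naming rule that act in the same pathway, none of 8 tested mitochondrial beta-oxidation partners passed limma's threshold in any comparison by its brightest probe set, and 2 had an unadjusted p under 0.05 in each. Their median log2 fold change was -0.17 in WSD relative to control, negative in 7 of 8, beside -0.08 over all tested genes. A dimmer probe set of MLYCD, the decarboxylase that removes the CPT1 inhibitor malonyl-CoA, was higher in WSD+T than in control (log2 fold change 1.38, SE 0.19, adjusted p = 0.0182) and than in WSD (log2 fold change 0.89, adjusted p = 0.0488). It read 77.9, 98.5 and 76.7 in WSD+T, 32.9, 30.2 and 53.8 in WSD and 21.9, 27.2 and 18.8 in control, with WSD+T above all other arrays. The brighter MLYCD probe set did not pass (log2 fold change 0.19 in WSD+T vs control). Of 8 tested peroxisomal partners 1 passed, EHHADH, the peroxisomal bifunctional enzyme, which was lower in WSD than in control (log2 fold change -0.66, SE 0.17, adjusted p = 0.0356). Its signals were 88.4, 79.2 and 81.3 in WSD+T, 72.8, 92.7 and 61.3 in WSD and 107, 130.3 and 147 in control, with all WSD and all WSD+T arrays below control. Neither of the 2 tested ketone body genes passed in limma's test (unadjusted p under 0.05: 1 in WSD+T vs control, 0 in WSD vs control and 1 in WSD+T vs WSD). In the peroxisome the member ACOX3, an acyl-CoA oxidase of branched chains, had log2 fold changes of 0.14 in WSD+T and -0.08 in WSD relative to control, neither past the threshold.

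ACOT9, a mitochondrial thioesterase that cleaves acyl-CoA back to free acid and coenzyme A, was higher in WSD than in control (log2 fold change 1.57, SE 0.32, adjusted p = 0.0154). Signals were 593, 579 and 669 in WSD+T, 580.1, 1169 and 513 in WSD and 279, 259.5 and 161 in control. Every WSD and WSD+T array lay above every control array. The means were 614 ± 48.7 in WSD+T, 754 ± 361 in WSD and 233 ± 63.1 in control, with WSD replicate 2 well above the other WSD arrays. WSD+T relative to control missed the threshold (log2 fold change 1.37, SE 0.32, adjusted p = 0.0667), and it passed in 4 alternative fits, with adjusted p of 0.0083 to 0.0338, among them those without WSD replicate 2 or WSD replicate 3. Between WSD+T and WSD the log2 fold change was -0.20, with a 95% interval of -0.91 to 0.52. The difference between WSD and control did not pass without control replicate 3 (adjusted p = 0.0506) or with only those groups in the fit (0.0668). The other tested thioesterases, ACOT6 and ACOT7, had log2 fold changes of 0.09 and -0.10 in WSD relative to control.

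The long-chain acyl-CoA synthetases, the fatty acid-binding proteins and lipoprotein lipase varied widely between arrays. FABP4, the carrier known from adipocytes, macrophages and endothelium, had 716, 578 and 688 in WSD+T, 397, 999.9 and 11.0 in WSD and 321, 5.60 and 36.9 in control. WSD+T arrays were all above control, but WSD spanned almost the whole range and control replicate 1 stood far above the other control arrays. Neither WSD+T (log2 fold change 3.21, SE 1.34, adjusted p = 0.24) nor WSD (log2 fold change 1.63, SE 1.34, adjusted p = 0.435) passed relative to control. Without WSD replicate 3 the log2 fold change of FABP4 in WSD was 3.15 with an adjusted p of 0.0489. Its second probe set then passed in WSD+T (2.60, adjusted p = 0.041) and in WSD (2.36, adjusted p = 0.0345) relative to control.

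FABP5, the epidermal-type carrier, had 4105, 3764 and 4024 in WSD+T, 4778, 4969 and 2496 in WSD and 3603, 1633 and 2012 in control. FABP3, the heart-type carrier, had 916, 803 and 961 in WSD+T, 1389, 960.5 and 733 in WSD and 941, 1890 and 1867 in control, read by a probe set that may match more than 1 transcript. All WSD+T arrays were above control for FABP5, and neither gene passed in any comparison (adjusted p in WSD relative to control 0.159 for FABP5 and 0.239 for FABP3). FABP1, FABP2 and FABP6, known from liver and intestine, were below the filter.

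ACSL1, which activates long-chain fatty acids for either oxidation or storage, had 555, 376 and 523 in WSD+T, 782, 1506 and 312 in WSD and 404, 182 and 179 in control. ACSL5, a synthetase of mitochondria and endoplasmic reticulum, had 722, 529.9 and 699.7 in WSD+T, 506, 1326 and 381 in WSD and 361, 271 and 249 in control. Neither passed in WSD relative to control (adjusted p = 0.085 for ACSL1 and 0.104 for ACSL5), although all WSD and all WSD+T arrays were above control for ACSL5. In WSD+T relative to control ACSL5 missed the threshold (log2 fold change 1.11, SE 0.40, adjusted p = 0.191) and passed in 3 alternative fits (0.0171 to 0.033). Without WSD replicate 3 ACSL1 and ACSL5 were both higher in WSD than in control, with log2 fold changes of 2.12 (adjusted p = 0.0105) and 1.45 (adjusted p = 0.0263). FABP4, FABP5, ACSL1, ACSL5 and ELOVL5 then joined the 5 genes above, for 10 members past the threshold (7 higher and 3 lower), where 26.7% of all tested genes passed.

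Lipoprotein lipase (LPL), which splits triglyceride of circulating lipoproteins at the vessel wall, was read differently by its probe sets. Its brightest had 784, 531 and 708 in WSD+T, 629, 1540 and 228 in WSD and 936, 77.5 and 132 in control, and did not pass (log2 fold change 1.40, SE 0.88, adjusted p = 0.31 for WSD vs control). A dimmer one read 203, 285 and 205 in WSD+T, 169, 149 and 190.1 in WSD and 393, 438 and 266 in control. On the dimmer one all WSD arrays were below all control arrays, and it was lower in WSD (log2 fold change -1.02, SE 0.22, adjusted p = 0.0184), though not without control replicate 1 or control replicate 2. These 2 probe sets thus had opposite signs. Of the other tested LPL probe sets, 1 went with the brightest in WSD vs control (log2 fold change 1.335, adjusted p = 0.408). The remaining 1 went with the lower one (log2 fold change -0.58, adjusted p = 0.0549), with all WSD arrays below control. It passed without WSD replicate 1 (adjusted p = 0.0484). Which transcripts each probe set matches was not examined. Over the 15 members with more than 1 tested probe set, signs differed within the gene for 7 in WSD+T vs control, 6 in WSD vs control and 3 in WSD+T vs WSD.

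The myeloid marker sums given above moved with this group of genes. On 10 of the 58 tested member probe sets (17.2%) the lowest arrays were WSD replicate 3 and control replicates 2 and 3, as for the myeloid markers. This was so for 1848 (7.01%) of all tested probe sets. The 10 belonged to ACADL, FABP4, FABP5, LPL, ACSL1, ACSL5 and ACSM3. For ACADL, ACSL5 and ACSM3 only dimmer probe sets had this order, not the brightest. FABP5, LPL and ACSL1 had other tested probe sets that lacked it. CD36, a fatty acid transporter that macrophages and endothelium also carry, named here after its values were seen, had 1633, 1181 and 1447 in WSD+T, 1681, 2681 and 59.5 in WSD and 1112, 48.7 and 98.7 in control, and did not pass (adjusted p = 0.412 in WSD vs control). The 11 endothelial markers on the array summed to 2797, 2447 and 2666 in WSD+T, 1908, 4258 and 702 in WSD and 1959, 1413 and 1360 in control. The 7 adipocyte markers on the array summed to 962, 975 and 970.2 in WSD+T, 809.9, 809 and 665 in WSD and 975, 889 and 1175 in control. Of the 3 tested ones ADIPOQ was lower in WSD than in control (log2 fold change -0.71, SE 0.17, adjusted p = 0.0291). CFD went the other way without passing (log2 fold change 0.86 in WSD and 1.06 in WSD+T relative to control, adjusted p = 0.107 and 0.134). Fold changes in WSD relative to control were positive in 1 of the 3 and negative in 2. CIDEA, GPD1, LGALS12 and RBP4 were below the filter. What these cell types contribute to FABP4, LPL and the synthetases was not tested.

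**Figure D3:**
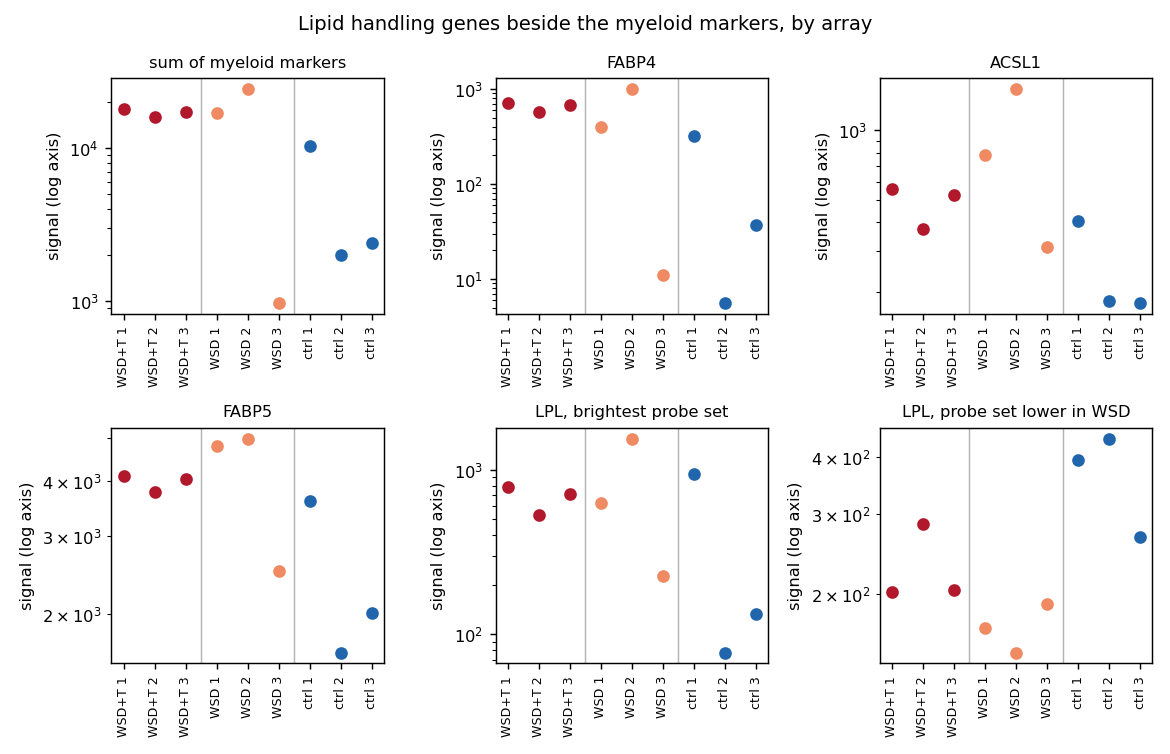
Signals (log axis) of lipid handling genes and of the summed myeloid markers on each of the 9 arrays. WSD replicate 3 and control replicates 2 and 3 are lowest both for the myeloid sum, at 973.7, 1995 and 2413, and for FABP4, at 11.0, 5.60 and 36.9.

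AADAC, an esterase of the endoplasmic reticulum known in liver for hydrolysing stored triglyceride and other esters, was higher in WSD follicles. Its signals were 222, 212 and 234 in WSD+T, 409.9, 358 and 301 in WSD and 137, 166 and 102 in control. The groups did not overlap: every WSD array was above every WSD+T array, and every WSD+T array above every control array. Means were 223 ± 10.6 in WSD+T, 356 ± 54.3 in WSD and 135 ± 31.9 in control. The difference between WSD and control passed (log2 fold change 1.31, SE 0.19, adjusted p = 0.00553), also in all 20 alternative fits, whose adjusted p ran from 0.0037 to 0.0413. Its second probe set was also higher (log2 fold change 1.62, SE 0.37, adjusted p = 0.0232), though not without WSD replicate 1 or control replicate 2. That probe set read 15.8, 1.17 and 15.4 in control, all under the filter's signal of 21.3. Signals above those of control were thus a condition of its being tested. By the brightest probe set WSD+T did not pass relative to control (log2 fold change 0.68, SE 0.19, adjusted p = 0.106), nor to WSD (log2 fold change -0.63, adjusted p = 0.0999).

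MTTP, the microsomal transfer protein that loads lipid onto apolipoprotein B, was lower in both diet groups than in control by its 1 tested probe set. Its other probe set was under the filter in every group, at means of 0.363 in WSD+T, 0.849 in WSD and 1.08 in control. The tested one read 8.99, 14.4 and 6.39 in WSD+T, 19.1, 14.4 and 20.6 in WSD and 36.8, 152 and 95.5 in control. All arrays of both diet groups were below control replicate 1, the lowest of the control arrays. The means were 9.92 ± 4.07 in WSD+T, 18.1 ± 3.22 in WSD and 94.9 ± 57.8 in control, so both diet groups lay below the filter's signal of 21.3 and the probe set was tested because of its control values. WSD+T differed from control (log2 fold change -1.96, SE 0.36, adjusted p = 0.0388), as did WSD (log2 fold change -1.55, SE 0.36, adjusted p = 0.0258). The call held in 9 of 19 alternative fits for WSD+T and in 13 of 19 for WSD. With 1 array left out the log2 fold change ran from -2.41 to -1.58 for WSD+T and from -2.01 to -1.18 for WSD, in both cases nearest to 0 without control replicate 2. For WSD+T the adjusted p was 0.0957 to 0.177 without 1 of the WSD+T replicates, 0.0597 without WSD replicate 1, and 0.0843 and 0.123 without control replicates 2 and 3. For WSD it was 0.0621 and 0.0571 without WSD replicates 1 and 2, and 0.0623 and 0.0806 without control replicates 2 and 3.

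AADAC and MTTP are best known from liver or intestine. Of 8 hepatocyte and enterocyte markers 6 were on the array and 4 were tested, and none passed limma's threshold in either comparison with control (unadjusted p under 0.05: 1 in WSD+T and 0 in WSD). Between WSD+T and WSD 1 of the 4, APOC3, was higher (log2 fold change 0.73, SE 0.16, adjusted p = 0.0472). Mean signals of this probe set were 35.45 in WSD+T, 15.19 in WSD and 19.7 in control. Only WSD+T lay above the filter's signal of 21.3, so higher signals in WSD+T were a condition of its being tested. The summed signals of the hepatocyte and enterocyte markers were 1272, 1138 and 1236 in WSD+T, 1081, 1264 and 1374 in WSD and 1275, 1325 and 1424 in control.

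**Figure D4:**
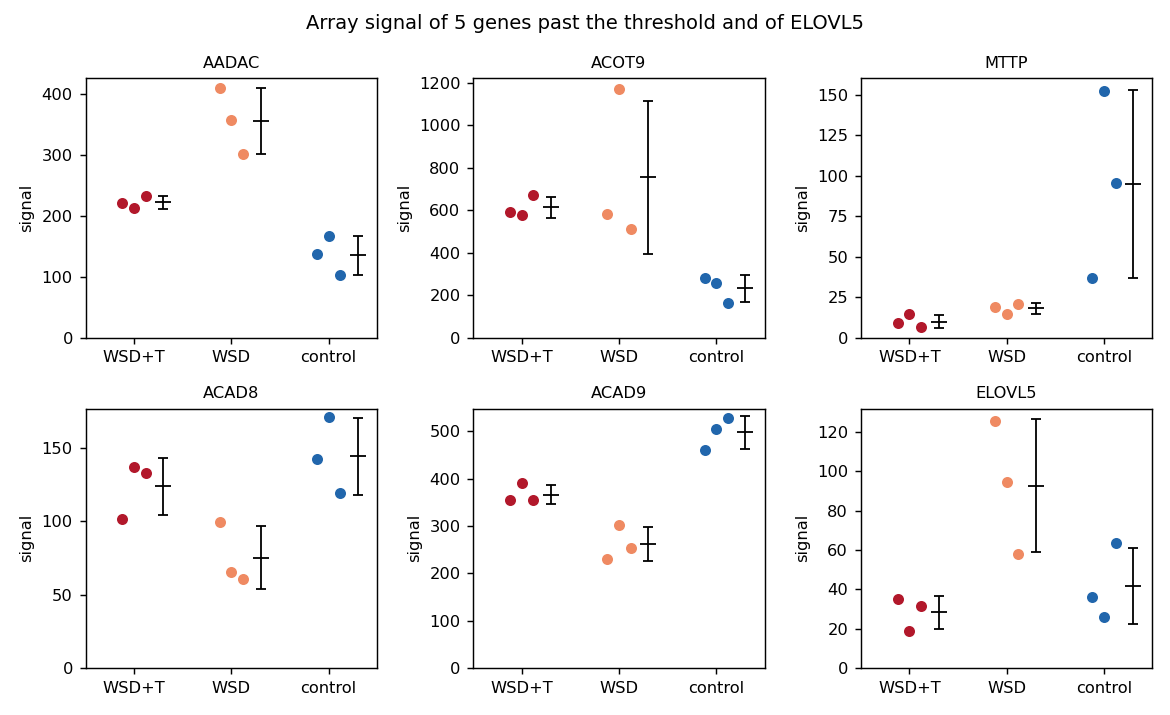
Signals (vertical axes, linear, starting at 0) of the 5 member genes past the threshold in WSD vs control and of ELOVL5, by group, with a point for each array and the mean ± SD. AADAC and ACOT9 are above control and MTTP, ACAD8 and ACAD9 below it on all 3 WSD arrays.

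The member genes of triglyceride synthesis and droplet coating did not pass the threshold in any comparison. DGAT1 and DGAT2, which add the last acyl chain of triglyceride, had log2 fold changes of -0.08 and 0.25 in WSD relative to control. PLIN3, a droplet coat protein, stood at -0.21 and AGPAT2, an acyltransferase of the phosphatidic acid step, at 0.18. AGPAT4 and AGPAT1, which catalyse the same step as AGPAT2, stood at -0.72 and -0.31 (adjusted p = 0.0993 and 0.149). AGPAT1 had every WSD array below every control array, and AGPAT4 was lower without control replicate 1 (log2 fold change -0.97, adjusted p = 0.0434). LIPA, the lysosomal acid lipase, had 3915, 4039 and 3676 in WSD+T, 4449, 4278 and 3698 in WSD and 3596, 2289 and 3894 in control, with overlapping groups (adjusted p = 0.246 in WSD vs control). AGPAT1 had WSD+T above WSD on every array (287, 308 and 291 in WSD+T and 179, 208 and 216 in WSD), but missed the threshold (log2 fold change 0.52, SE 0.13, adjusted p = 0.0685). The 7 tested triglyceride and droplet partners and the 6 lipolysis partners had no call in any comparison by limma on the brightest probe set of each gene. A dimmer one of GPAM, the mitochondrial enzyme of the first acylation of glycerol phosphate, was lower in WSD than in control (log2 fold change -0.93, SE 0.23, adjusted p = 0.0322), while the brightest had a log2 fold change of -0.93 (adjusted p = 0.0702). By the brightest probe sets, at an unadjusted p under 0.05 the droplet partners held 2, 2 and 1 in WSD+T vs control, WSD vs control and WSD+T vs WSD, and the lipolysis partners 0, 1 and 0.

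Of the 10 tested uptake partners 1 passed: SLC27A5, a bile acid-CoA and very long-chain acyl-CoA synthetase, was lower in WSD than in control (log2 fold change -0.97, SE 0.23, adjusted p = 0.0271). Its signals were 140.2, 209 and 123 in WSD+T, 104, 101 and 93.0 in WSD and 175, 185 and 285 in control. All WSD arrays were below all control arrays, while WSD+T overlapped control.

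The elongases lengthen activated fatty acids at the endoplasmic reticulum. ELOVL5, which acts on polyunsaturated chains, had 34.9, 18.8 and 31.2 in WSD+T, 126, 94.4 and 57.9 in WSD and 36.1, 26.1 and 63.4 in control. WSD+T arrays were all below WSD arrays, whereas WSD overlapped control through WSD replicate 3 and control replicate 3. The difference between WSD+T and WSD missed the threshold (log2 fold change -1.26, SE 0.30, adjusted p = 0.0626), and it passed after quantile normalization (adjusted p = 0.0483), after loess (0.045) and without WSD replicate 3 (0.0308). WSD relative to control also missed it (log2 fold change 0.91, adjusted p = 0.08). ELOVL7, another elongase of long chains, had WSD+T below WSD without overlap as well (log2 fold change -0.95, adjusted p = 0.135). ELOVL6, which elongates saturated chains, had 0.47 in the same comparison, in the opposite direction. A dimmer ELOVL6 probe set was lower in WSD than in control without WSD replicate 3 (log2 fold change -1.10, adjusted p = 0.00522). ELOVL1 did not pass in that comparison (log2 fold change 0.34, adjusted p = 0.383), but was higher in WSD without WSD replicate 2 (0.64, adjusted p = 0.0374).

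FADS2, the desaturase that works in series with ELOVL5, was the 1 of 6 tested elongation and desaturation partners past the threshold. Its signals were 152, 158 and 165 in WSD+T, 182, 149 and 162 in WSD and 314, 538 and 329 in control, and all arrays of both diet groups were below all control arrays. It was lower in WSD+T (log2 fold change -1.20, SE 0.20, adjusted p = 0.0317) and in WSD (log2 fold change -1.15, SE 0.20, adjusted p = 0.0107) than in control, and WSD+T and WSD did not differ past the threshold.

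Among 14 tested regulators of fatty acid genes, RXRB, the partner receptor of the PPARs, was lower in WSD than in control (log2 fold change -0.75, SE 0.13, adjusted p = 0.0107). Its signals were 211, 204 and 196 in WSD+T, 146, 114 and 147 in WSD and 245, 231 and 239 in control, with all WSD arrays below all WSD+T arrays and those below control. PRKAA2, a catalytic subunit of the energy sensor AMPK, was higher in WSD+T than in WSD (log2 fold change 0.73, SE 0.15, adjusted p = 0.0416), with 60.5, 50.2 and 56.1 in WSD+T and 27.2, 21.1 and 33.5 in WSD. No regulator passed in limma's test between WSD+T and control, where 4 had an unadjusted p under 0.05 and 6 of the 14 fold changes were positive.

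Counted by whether arrays of the groups overlap, 12 members (32.4%) were apart in WSD+T vs control, 11 (29.7%) in WSD vs control and 13 (35.1%) in WSD+T vs WSD. The shares over all tested genes were 40.3%, 32.3% and 28.8%. Fold changes within 0.5 of 0 on the log2 scale were found for 28, 23 and 27 of the 37 genes in these comparisons. The SE of a member's fold change had a median of 0.21 and reached 1.34, for FABP4, so that changes of the size seen in ACAD9 could not be told from the spread between arrays in the most variable members.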

How the data were processed

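Per the labels, total RNA of pooled small antral follicles was amplified with a NuGEN 3' protocol, biotin-labelled and hybridised to 1-colour arrays, and the replicates are biological. The authors deposited 1 signal intensity, on a linear scale, for each probe set and array, computed with MAS5 per the submitters' processing notes. The mean without the outer 2% of probe sets was 200.01 on all 9 arrays, so each array had been scaled to 1 trimmed mean. MAS5's version, its detection calls and the genome build were not given in the sources used here. The number of arrays limits the precision.

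Of 52865 probe sets, 158 controls were left out. Values were taken as log2(signal + 16), probe sets under the median mean of 5.22 were dropped, and 1 model with a mean for each of 3 groups was fitted to 26354 probe sets by lmFit and eBayes of limma 3.58.1 (R 4.3.3), on 6 residual and 2.69 prior degrees of freedom. Plots used matplotlib 3.10.9 under Python 3.11.15.

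Symbols came from the array annotation; all 84 member probe sets were found by Entrez ID, under the same symbol, among the RefSeq genes of 1 macaque assembly. That table was used for names only. Members, partner lists, markers and the rule for named genes were chosen with earlier results of these data known: every member past the threshold is named, also where only a further probe set passed, beside a set list of pathway genes, while other members are given by counts. The fit was tested on simulated data. Alternatives were other pseudocounts, filters, scalings, weights, a replicate block, an average of WSD+T replicates 1 and 3, fits of only the groups compared, and each array left out.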

Additional observations from a re-analysis of the deposited data

How the results depend on the processing

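No named member value changed direction past the threshold. Of 473 member values under alternatives in each comparison, those that lost the threshold numbered 10 in WSD+T vs control, 28 in WSD vs control and 0 in WSD+T vs WSD, and those that gained it 8, 6 and 3. In WSD+T vs control, the 517 probe sets called became 3263 with array weights per group, 3261 with only the groups compared, 0 with WSD+T replicates 1 and 3 averaged (3064 at an unadjusted p under 0.05) and 0 to 1767 with 1 array left out; the 1 member became 0 with a pseudocount of 64, without a filter, with an upper-quartile filter and with those replicates averaged, 6 with weights, 4 with only the groups compared and 0 to 3 with 1 array left out (3 without WSD replicate 2, 2 without WSD replicate 3, 1 without control replicate 1, otherwise 0). In WSD vs control, 3817 probe sets became 2396 with the upper-quartile filter, 1365 with weights, 2534 with the average, 854 with only the groups compared and 1755 to 6604 with 1 array left out; the 5 members became 3, 3 and 2 under the filter, weights and only the groups compared, and 3 to 10 with 1 array left out (10 without WSD replicate 3, 3 without control replicate 2 or 3). In WSD+T vs WSD, 786 probe sets became 299 after median centring, 185 with weights, 0 with the average (3952 at an unadjusted p under 0.05), 3 with only the groups compared and 0 to 1549 with 1 array left out; 1 member passed, against 0, with the upper-quartile filter, quantile normalization and loess, and 0 to 1 with 1 array left out (1 without WSD replicate 2 or 3). Partner genes and markers were part of these fits, but their values there were not looked at gene by gene. With the replicate block, with the average, or without WSD+T replicate 1, no probe set passed in WSD+T vs control or in WSD+T vs WSD. The calls of MLYCD, PRKAA2 and APOC3, and that of FADS2 in WSD+T vs control, were thus lost in those fits. Under the upper-quartile filter MTTP and ACAD8 were not among the probe sets tested, which accounts for the members lost there. AADAC, ACOT9 and ACAD9 still passed in WSD vs control. The cause of the other moves was not tested.

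Same-numbered samples did not pair: of 9 pairs of residuals, 4 correlated above 0.1, over a range of -0.302 to 0.19. With the replicate block, calls were 0 in WSD+T vs control (4496 at an unadjusted p under 0.05; 0 members), 2219 in WSD vs control (4 members) and 0 in WSD+T vs WSD (4839; 0 members). Lower probe sets made up 72.5% of calls in WSD+T vs control and 48.3% with weights. In WSD vs control they were 66.9%, against 56.8% after quantile normalization, 46.8% after median centring and 50.4% after loess; in WSD+T vs WSD 31.7%, against 51.7%, 60.2% and 56.9%. Median centring moved the median of all genes in WSD vs control to 0.05 and that of the members to 0.05; under median centring and loess 3 members were higher (ELOVL5 added) and 2 lower (ACAD8 lost) in that comparison.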
